A study of Mus musculus with 6 samples.

Results

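H3K4me3 and HA-tagged ASH2L were examined at the promoters of 39 mouse genes that act in germ cells and in meiosis. They were a listed set of 39 of the 21938 protein-coding genes of GENCODE vM21 on chromosomes 1 to 19, X and Y, and all 39 symbols were found in the annotation. By role, the set held 5 genes of the synaptonemal complex, 5 of the meiotic chromosome axis and cohesin, 6 of meiotic recombination, 13 of the piRNA pathway and germ granules, 6 regulators of germ cell fate and 4 products of differentiating sperm and eggs. The cells were E14, a line of mouse embryonic stem (ES) cells grown with serum and LIF, and none of the samples were germ cells. CUT&RUN, in which an antibody tethers a nuclease to its target and the released DNA is sequenced, was done on 6 samples in 3 groups of 2. The groups were anti-HA in the HA-Ash2L line (1000000 cells per the labels), anti-H3K4me3 in the same line (100000 cells per the labels) and anti-HA in the parental line (1000000 cells per the labels), all after 48 h of doxycycline, which induces the HA-Ash2L transgene. The methods of the study name the larger of these cell numbers for every experiment, and the conflict was not resolved. The labels call the HA-Ash2L genotype a knock-in, whereas the methods describe a piggyBac transposon construct with the doxycycline transactivator, introduced by electroporation and kept in colonies picked for stable expression. H3K4me3 was therefore mapped only in cells that carried the induced transgene, and the ASH2L list recorded the tagged protein. The parental anti-HA samples enter no comparison below.

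Trimethylation of lysine 4 of histone H3 (H3K4me3) marks promoters, mostly those rich in CpG, and is made by the MLL/SET1 complexes, in which ASH2L is a core subunit. Most genes of meiosis and of the piRNA pathway are silent in ES cells. They are known to be held there by a Polycomb complex that contains E2F6, MGA, MAX, L3MBTL2 and PCGF6, by H3K9 methylation and by DNA methylation, and they come into use when germ cells enter meiosis.

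Both peak lists came from merged duplicates, so each member had a single value per list and no spread between samples. The H3K4me3 list held 59927 peaks with 45.7% of 27328071 tags, and the ASH2L list held 2464 peaks with 0.398% of 25677963 tags. A member was called marked when a peak overlapped, by 1 bp or more, the window that reaches 1000 bp before and 100 bp past the start site of any of its transcripts. Where several peaks did so, the peak with the most tags was taken. Tags are summed over a peak, so that levels of different genes are compared as tags per kb of peak. Intervals on shares are 95% Wilson intervals and those on tags are 95% exact Poisson intervals, and both cover counting error only. The peak caller judged a site against the tags within 10000 bp of it in the same library, and the longest H3K4me3 peak at a protein-coding promoter was 8609 bp. A promoter without a called peak is therefore not shown to lack the mark. Of 10 ES cell markers, 4 had a called peak (Zfp42, Esrrb, Klf4 and Tfcp2l1), while Pou5f1, Nanog, Sox2, Dppa5a, Tdgf1 and Utf1 had none, for a cause that was not tested. Of 6 fibroblast markers, which feeder cells would carry, Col1a1, Col1a2, Thy1 and Twist2 had a peak and Col3a1 and Postn had none.

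The upstream sequences of 8 members are shown first, as examples of the motifs and CpG content described after the peaks. They are from the RefSeq promoter table on GRCm38.p6, read 5′ to 3′ on the strand of the gene from 200 bases before the start site of the table and stopped before the first annotated start site. Capitals mark GCGGGA, the core of the motif bound by E2F6, in either orientation (TCCCGC on the other strand), and CACGTG, the E-box bound by MGA and MAX, which reads the same on both strands. Hormad1, Sycp3 and Slc25a31 are shown because their promoters held both motifs and had an H3K4me3 peak. Sycp1 is shown because it was the member with the strongest ASH2L peak. Tdrd1, Piwil1 and Tdrd9 are shown because they held CACGTG and had no H3K4me3 peak at the reference start site, and Nanos2 because its promoter held no CpG in 300 bases. The stretches lay at chr3:95559477-95559676 on the plus strand, chr10:88459387-88459568 on the plus strand, chr3:40708671-40708854 on the plus strand, chr3:102936101-102936300 on the minus strand, chr19:56826009-56826208 on the plus strand, chr5:128736046-128736173 on the plus strand, chr12:111971359-111971558 on the plus strand and chr7:18987324-18987399 on the plus strand.
Hormad1: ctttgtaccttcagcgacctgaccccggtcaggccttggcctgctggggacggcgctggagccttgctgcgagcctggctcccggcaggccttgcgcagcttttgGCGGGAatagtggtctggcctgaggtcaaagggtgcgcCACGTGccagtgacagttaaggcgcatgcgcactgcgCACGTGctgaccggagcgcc
Sycp3: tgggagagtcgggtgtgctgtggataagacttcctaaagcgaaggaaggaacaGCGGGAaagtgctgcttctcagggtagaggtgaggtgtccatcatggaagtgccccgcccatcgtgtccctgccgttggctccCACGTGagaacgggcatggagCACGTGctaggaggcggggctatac
Slc25a31: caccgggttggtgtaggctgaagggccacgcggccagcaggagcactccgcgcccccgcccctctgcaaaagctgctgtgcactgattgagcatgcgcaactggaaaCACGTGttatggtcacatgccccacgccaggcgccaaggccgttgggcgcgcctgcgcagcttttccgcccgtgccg
Sycp1: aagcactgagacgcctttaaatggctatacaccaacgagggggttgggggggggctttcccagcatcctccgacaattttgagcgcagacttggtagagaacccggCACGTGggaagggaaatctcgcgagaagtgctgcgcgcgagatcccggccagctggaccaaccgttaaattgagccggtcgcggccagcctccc
Tdrd1: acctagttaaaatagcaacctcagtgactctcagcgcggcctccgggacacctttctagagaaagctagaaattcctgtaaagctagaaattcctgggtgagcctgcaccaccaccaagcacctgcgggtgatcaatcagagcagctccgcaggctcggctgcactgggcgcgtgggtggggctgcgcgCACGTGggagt
Piwil1: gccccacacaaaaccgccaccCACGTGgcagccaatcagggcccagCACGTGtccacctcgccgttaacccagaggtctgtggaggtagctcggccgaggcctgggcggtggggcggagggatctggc
Tdrd9: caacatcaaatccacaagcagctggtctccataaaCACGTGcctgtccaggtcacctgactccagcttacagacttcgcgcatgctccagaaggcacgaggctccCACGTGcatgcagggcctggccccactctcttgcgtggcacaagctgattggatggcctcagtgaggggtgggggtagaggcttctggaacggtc
Nanos2: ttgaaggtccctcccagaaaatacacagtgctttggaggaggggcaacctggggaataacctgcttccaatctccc

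An H3K4me3 peak was present at the promoters of 33 of the 39 members (84.6%, interval 70.3 to 92.8%), beside 68.4% of all protein-coding genes (15012 of 21938). The lower end of the interval lies just above the share of all protein-coding genes. The share was 5 of 5 for the synaptonemal complex and for the axis and cohesin genes, 5 of 6 for recombination and for fate regulators, 10 of 13 for the piRNA pathway and 3 of 4 for the sperm and egg products. The 6 members without a peak were Msh4, Piwil1, Tdrd1, Asz1, Nanos2 and Tex101. When 1 reference start site per gene was used (the principal isoform), 29 of 39 members were marked (74.4%, interval 58.9 to 85.4%), beside 64.6% of all protein-coding genes, a share inside the interval.

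The peaks at the marked members were small. Peak values exist only where a peak passed the caller's cutoff, for members and for other genes alike, and they are given as a description. The median peak of the 33 marked members was 1704 bp long, with a range of 537 to 7878 bp, beside 2943 bp over all 15012 marked protein-coding genes. The median number of tags was 136, with a range of 27 to 1214, beside 469 over all marked genes. Per length, the median was 89.8 tags per kb at the members and 154 tags per kb over all, a measure that itself rose with peak length (values by length class below). Of the 33 peaks, 28 (84.8%) held fewer tags than the lower quartile of all marked genes, 304 tags, a limit that 25% of all marked genes fall under, and 27 (81.8%) were shorter than the lower quartile of length, 2185 bp. Only Dmc1, Msh5, Stag3, Nanos3 and Stra8 held 304 tags or more, and of these Msh5 alone lay above the median of all marked genes, with Stag3 at the median.

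**Figure D1:**
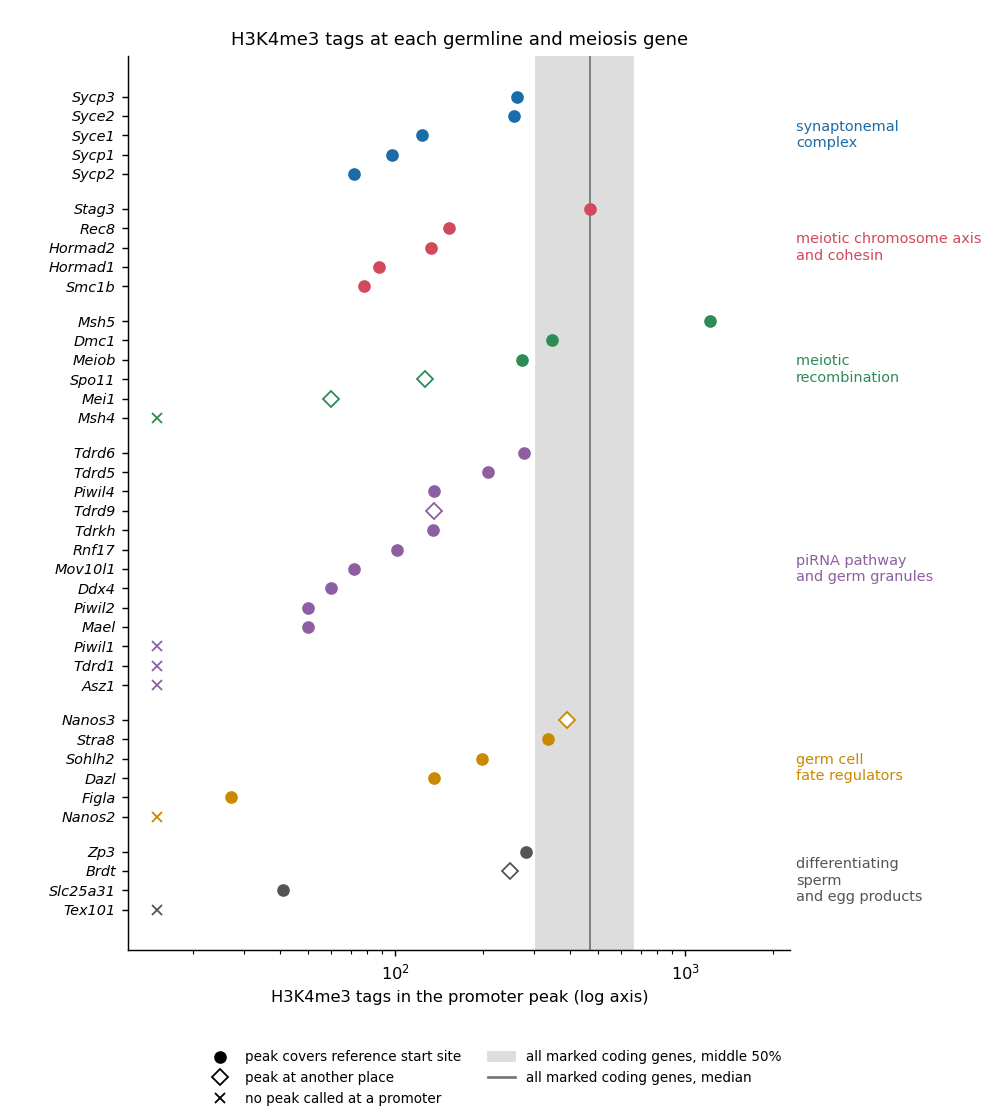
H3K4me3 tags in the promoter peak of each member (x axis, log scale), grouped by role, with the middle 50% (grey band, 304 to 661 tags) and the median (grey line, 469 tags) of all marked protein-coding genes. Filled circles are peaks that cover the reference start site, open diamonds are peaks elsewhere and crosses, drawn at an arbitrary place, are the 6 members without a peak. Most members sit left of the band, and Msh5 sits right of it.

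Low tags did not go with low enrichment. The fold enrichment, deposited by the authors as a ratio of summit tags over local background, had a median of 8.18 at the marked members, with a range of 2.91 to 13.73, beside 6.38 over all marked genes. It was above the upper quartile of all marked genes, 8.10, at 18 of the 33 members (54.5%, where 24.9% of all lie above). Fold enrichment fell with peak length across all marked genes, from a median of 9.01 at 1256 peaks under 1500 bp to 8.50 at 4071 peaks of 1500 bp to under 2500 bp and 5.55 at 9685 longer ones. The members had medians of 8.18 at 15 peaks of the shortest class, 8.51 at 15 of the middle class and 5.16 at 3 of the longest. Of the members' peaks, 45.5% were shorter than 1500 bp, beside 8.37% of all. Within the shortest class the median was 72 tags at the members beside 89 over all, and within the middle class 248 tags beside 287. Tags per kb rose with length over all marked genes, with medians of 74.49, 139.9 and 164.2 from the shortest to the longest class. The members had 60.35, 115.7 and 115.9 tags per kb in the same classes, so the gap within the 2 shorter classes was smaller than without classes. The p-value score of the caller had a median of 326.7 at the members and 619 over all.

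**Figure D2:**
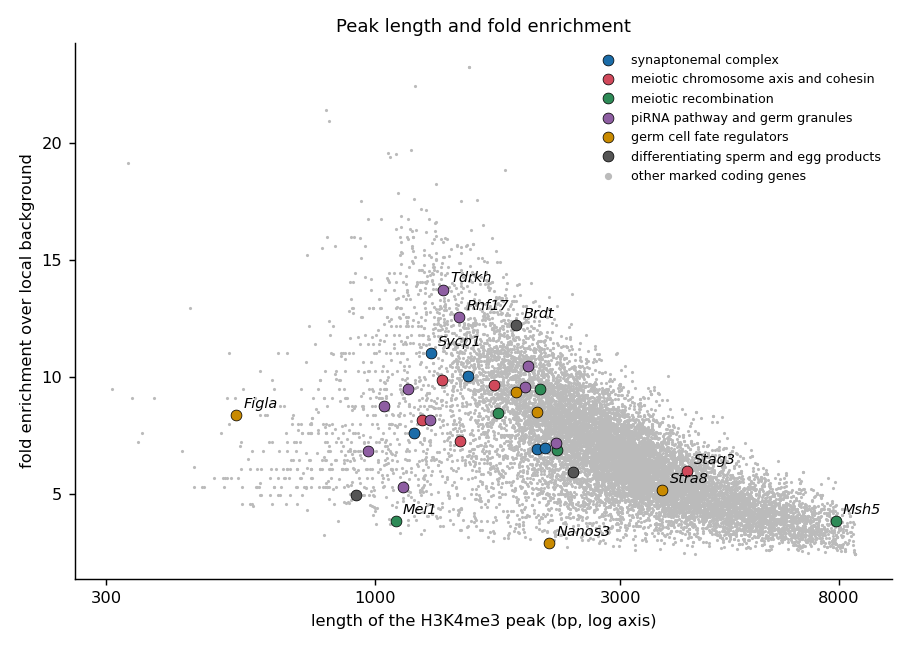
Length of the H3K4me3 peak (x axis, bp, log scale) against its fold enrichment over the local background (y axis) for the 33 marked members, coloured by role, and for the other marked protein-coding genes in grey. Most members lie at the short end, spread in fold enrichment up to Tdrkh at 13.73, while Msh5 at 7878 bp lies at the long end.

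Genes of the synaptonemal complex, the protein ladder that joins homologous chromosomes in meiosis, were all marked over the start site. Sycp3, a component of the lateral elements, had the most tags of the 5, 262 (231 to 296) over 2068 bp. Syce2, of the central element, was close to it with 256 tags over 2144 bp. Syce1, also of the central element, had 123 tags over 1519 bp, and Sycp1, the transverse filament, had 97 tags over 1284 bp. Sycp2, the partner of Sycp3, had the fewest, 72 (56.3 to 90.7) over 1193 bp. Per length, Sycp3 and Syce2 held 126.7 and 119.4 tags per kb, with overlapping intervals (112 to 143 and 105 to 135), and the other 3 held 60.35 to 80.97 tags per kb. Sycp1 and Syce1 were the most enriched over their surroundings, at 11.02-fold and 10.02-fold, beside 6.94-fold for Sycp3, 6.98-fold for Syce2 and 7.6-fold for Sycp2.

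The axis and cohesin genes were also all marked. Hormad1 and Hormad2 encode HORMA domain proteins of the chromosome axis, and they held 88 tags over 1466 bp and 133 tags over 1353 bp. The peak of Hormad2 ran from 1124 bp before to 228 bp after its reference start site, and the summit lay 105 bp before the nearest annotated start site. Rec8, the meiotic kleisin of cohesin, had 153 tags over 1704 bp at 9.67-fold. Smc1b, the meiotic SMC subunit, had 78 tags over 1233 bp, in a peak that also covered the start of Ribc2. Stag3, the meiotic STAG subunit, had 469 tags over 4047 bp, in a peak that also held the starts of Gpc2 and Gm43720. Tags in the shared peaks of Smc1b and Stag3 cannot be assigned to a single promoter. Per length, Stag3 held 115.9 tags per kb and Hormad1 60.03, and their intervals (106 to 127 and 48.2 to 73.7) did not overlap.

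Among the recombination genes, Dmc1, the meiotic recombinase that pairs a broken strand with the homologue, had 346 tags over 2259 bp, or 153.2 tags per kb (137 to 170). Meiob, a single-strand DNA binding protein of meiosis, had 273 tags over 2092 bp with its summit 8 bp from the reference start site. Msh5, a MutS homologue that holds recombination intermediates together, had by far the largest peak of the set, 1214 tags over 7878 bp at chr17:35045305-35053182. That peak also held the start of Clic1, its summit lay 4657 bp upstream of the reference start site of Msh5, and its fold enrichment was 3.83. Msh4, the partner of Msh5, had no peak at any of its 7 start sites, and the nearest one lay 30567 bp upstream, at Acadm. Spo11, which makes the meiotic double-strand breaks, had a peak of 126 tags that ended 1519 bp before its coding start site and covered the start of a retained-intron transcript. Mei1, which is needed for those breaks, had 60 tags at a start site 12467 bp upstream of its reference start site, with a p-value score of 55.45, just over the cutoff of 50.

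The piRNA pathway, in which PIWI proteins loaded with small RNAs silence transposons in the germline, gave 10 marked members of 13, with a median of 118 tags and no peak above the lower quartile of all marked genes. Tdrd6, a Tudor domain protein of germ granules, had the most, 278 tags over 2246 bp, and the related Tdrd5 had 209 tags over 1986 bp. Tdrkh, which binds PIWI proteins at mitochondria for trimming of piRNAs, had 135 tags (113 to 160) over only 1358 bp, at chr3:94412502-94413859, and the highest fold enrichment of all members, 13.73. Rnf17, a Tudor and RING protein, followed with 12.55-fold and 101 tags. Per length, Tdrd6 held 123.8 tags per kb (110 to 139), Piwil4 106.2 (89.1 to 126), Tdrd5 105.2 (91.6 to 120) and Tdrkh 99.41 (83.2 to 118), and neighbours in this order overlap in their intervals. Piwil1, Piwil2 and Piwil4 encode the PIWI proteins themselves. Piwil4 had 136 tags at its start site and another peak of 72 tags from 33990 to 35021 bp downstream, near an internal start site at 35651 bp that it did not cover. Piwil2 had 50 tags over 1136 bp, or 44.01 tags per kb, and the Gm24890 transcript also starts inside that peak. The peaks of Tdrd5 and Tdrkh likewise held starts of non-coding transcripts.

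At the lower end, Ddx4, the Vasa helicase of germ granules, had 60 tags (45.8 to 77.2) over 1040 bp, and Mael, which acts in piRNA-directed silencing, had 50 tags (37.1 to 65.9) over 971 bp. Mov10l1, the helicase that starts piRNA processing, had 72 tags over 1157 bp at 9.5-fold. The intervals of these 3 genes overlap, so their order is not resolved. Tdrd9, a helicase with a Tudor domain, was marked only inside the gene, by peaks of 136 and 126 tags whose summits lay 41718 and 53236 bp downstream of the reference start site. Piwil1, Tdrd1 and Asz1 had no peak. The nearest peak to the reference start site of Piwil1 was 3250 bp downstream with 54 tags. That of Tdrd1 was 2933 bp upstream with 478 tags, at the start of Ccdc186, and that of Asz1 was 61050 bp upstream, at Cftr. For Piwil1, a peak of 84 tags at chr5:128703557-128704909 lay 1033 bp from another annotated start site, outside the promoter window.

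Of the fate regulators, Stra8, which triggers entry into meiosis, had 336 tags over 3626 bp, from 963 bp before to 2662 bp after the start site. Its density, 92.66 tags per kb (83.0 to 103), did not stand apart from that of Sohlh2, a bHLH factor of early germ cells, with 96.32 tags per kb (83.3 to 111) and 199 tags. Dazl, an RNA-binding protein of germ cells, had 136 tags over 1880 bp. The summit lay 819 bp downstream of its reference start site and 75 bp from the nearest annotated start site. Figla, the bHLH factor that turns on zona pellucida genes in oocytes, had the smallest peak of the set, 27 tags (17.8 to 39.3) over 537 bp. Nanos2 and Nanos3 encode RNA-binding proteins of male and of primordial germ cells. Nanos2 had no peak, and the nearest one, of 543 tags at the start of Mypop, began 2337 bp downstream. Nanos3 was called only through a transcript that starts 8665 bp upstream, near a peak of 389 tags that covered no start site of the gene and had the lowest fold enrichment of the set, 2.91.

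Of the products of differentiating germ cells, Zp3, a glycoprotein of the egg coat, had 281 tags over 2428 bp at 5.92-fold. Slc25a31, the ADP/ATP carrier of germ cells, had 41 tags (29.4 to 55.6) over 920 bp. Brdt, the bromodomain protein of the testis, had a peak of 58 tags at its start site and a larger one, 248 tags at 12.22-fold, at an internal start site 28678 bp downstream. Tex101, a surface protein of male germ cells, had no H3K4me3 peak, and the nearest lay 7215 bp downstream of its reference start site.

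Most peaks lay on the start site. The peak taken covered the reference start site at 28 of 33 marked members (84.8%, interval 69.1 to 93.3%), beside 88.3% of all marked protein-coding genes. The summit was within 500 bp of it at 23 of 33 (69.7%, interval 52.7 to 82.6%), beside 72.7% of all. Spo11, Mei1, Nanos3 and Tdrd9 were marked only away from it, and for Brdt the larger of 2 peaks was internal. Peaks shared with the promoter of another protein-coding gene were few, 3 of 33 (9.09%, interval 3.14 to 23.6%: Stag3, Smc1b and Msh5), beside 20.5% of all marked genes. The 29 peaks at the reference start site had a median of 1466 bp and 135 tags, beside 2922 bp and 468 tags over the 14117 genes marked there.

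ASH2L peaks were found at 3 of 39 members (7.69%, interval 2.65 to 20.3%), beside 7.67% of all protein-coding genes. Sycp1 had a peak of 29 tags (19.4 to 41.6) at chr3:102935474-102936235, from 135 bp before to 626 bp after the start site, at 6.29-fold with a p-value score of 62.02. Syce1 had 21 tags (13 to 32.1) at chr7:140787369-140787896, at 4.5-fold, with a score of 51.11. Both lay inside the H3K4me3 peak of the same gene. Tex101 had 23 tags (14.6 to 34.5) at chr7:24677399-24677933, at 5.84-fold, 5349 to 5883 bp upstream of its reference start site and 724 bp upstream of an alternative one, with no H3K4me3 peak. Of the 6926 protein-coding genes without an H3K4me3 peak, 44 (0.635%) had an ASH2L peak, Tex101 among them.

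These peaks were low in tags. At protein-coding promoters the median ASH2L peak held 36 tags, and the 3 members lay at the percentiles 24.1 (Sycp1), 1.25 (Syce1) and 4.93 (Tex101). In fold enrichment, with a median of 5.29 at protein-coding promoters, Sycp1 and Tex101 lay above the median, at the percentiles 80.5 and 68.8, and Syce1 below it, at 19.6. No member kept an ASH2L peak at a p-value score of 100 or more, where 0.912% of all protein-coding genes did. For the other 36 members the nearest ASH2L peak lay 8295 bp (Ddx4) or more from any start site, with a median of 116073.5 bp. Across all marked genes, ASH2L peaks went with H3K4me3 tags, from 3.58% in the lowest quartile of tags to 16.8% in the highest. In that lowest quartile stood 28 of the 33 marked members, of which 2 had an ASH2L peak (7.14%, interval 1.98 to 22.6%).

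Relatives of the members that work in somatic cells had larger peaks. Of 21 such genes, 18 were marked (85.7%, interval 65.4 to 95%), with a median of 721 tags and 4463 bp, and none of the 18 fell under 304 tags. Ago1, an Argonaute of the microRNA pathway and a relative of the PIWI genes, had 1413 tags over 7175 bp, and Ago4 the fewest, 375. Per length, the median was 165.2 tags per kb for the marked somatic relatives, beside 89.8 for the marked members, whose peaks were shorter. Tags per kb also rose with peak length over all marked genes. Among cohesin subunits, Smc1a held 138.5 tags per kb (126 to 152) where Smc1b held 63.26, and Rad21 held 150 (140 to 161) where Rec8 held 89.79. Mov10 held 185.8 tags per kb (176 to 196) where Mov10l1 held 62.23, and Brd3 held 195.7 (183 to 209) where Brdt held 131.6 (116 to 149) in the larger of its peaks and 60.73 at its start site. Slc25a4 held 157.7 tags per kb (142 to 174) where Slc25a31 held 44.57. None of these 5 pairs overlapped in their counting intervals. Msh6 and Brd2 were among those without a called peak. ASH2L peaks stood at 4 of the 21 (19%, interval 7.67 to 40.0%), beside 7.67% of all protein-coding genes. The list was drawn up with results of these data known, so the gap is a description.

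In 36 further germline genes, 30 were marked (83.3%, interval 68.1 to 92.1%), with a median of 359 tags and 2646 bp, and 14 of the 30 fell under 304 tags. The range ran from Sohlh1, the partner of Sohlh2, with 25 tags over 549 bp, to Tfap2c, a factor of primordial germ cells, with 1531 tags over 8574 bp. Gtsf1, Rad21l, Spata22, Zp1, Zp2 and Bmp15 had no peak. Of 16 genes for repressors of germline genes, 15 were marked (93.8%, interval 71.7 to 98.9%), beside 68.4% of all protein-coding genes. The median of the marked ones was 735 tags, from Setdb1 with 116 to Ehmt2 with 1237, and Ring1 had no called peak. E2f6, Rnf2 and Ehmt1 of that list had an ASH2L peak (18.8%, interval 6.59 to 43.0%), beside 7.67% of all protein-coding genes.

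**Figure D3:**
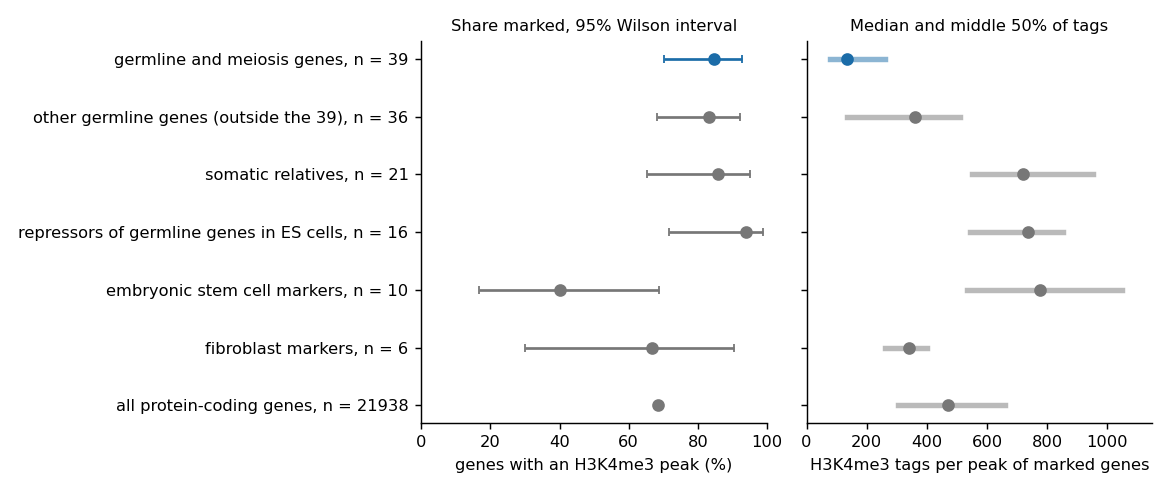
Left, share of genes with an H3K4me3 peak at a promoter in each list (x axis, percent, with 95% Wilson intervals). Right, H3K4me3 tags in the peak of the marked genes of each list (x axis; points are medians, bars the middle 50%). The 39 members resemble the other germline and somatic lists in the share marked, and lie lowest in tags, with a median of 136.

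Promoter sequence was compared in the RefSeq table, which held 34 of the 39 members and 16530 protein-coding genes. Meiob, Piwil2, Rnf17, Spo11 and Tdrd6 were not matched. CpG classes were set from 500 bp windows between 1000 bp upstream and 500 bp downstream of the reference start site: high with a GC share of 55% or more and a CpG ratio (observed over expected) of 0.75 or more in some window, low with no window at 0.48, and intermediate otherwise. The members held 16 high (47.1%, beside 49.1% of all), 14 intermediate (41.2%, beside 18.1%) and 4 low promoters (11.8%, beside 32.8%). The start site of the table lay within 100 bp of the reference start site for 27 of the 34 members, and farthest from it for Msh4 (1247 bp) and Stra8 (785 bp). The low-CpG members were Nanos2, Nanos3, Stra8 and Zp3. Nanos2 had no CpG in the 300 bases of the table, while Tdrd5, the richest, had 48 at a GC share of 76.0%.

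Within the high and intermediate classes, the marked members had fewer tags than other marked genes. Of the 16 high promoters, 14 were marked at the reference start site (87.5%, interval 64.0 to 96.5%), beside 95% of all, and the exceptions were Tdrd1 and Msh4. Of the 14 intermediate ones, 9 were marked (64.3%, interval 38.8 to 83.7%), beside 78.9%. Both intervals include the share of all genes of the class. The median was 116 tags at the marked high-CpG members, with a range of 41 to 1214, beside 536 over all high-CpG genes, and 133 at the intermediate members beside 329. In the low class, Stra8 and Zp3 were marked, with 336 and 281 tags, beside a median of 181 over all marked low-CpG genes.

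**Figure D4:**
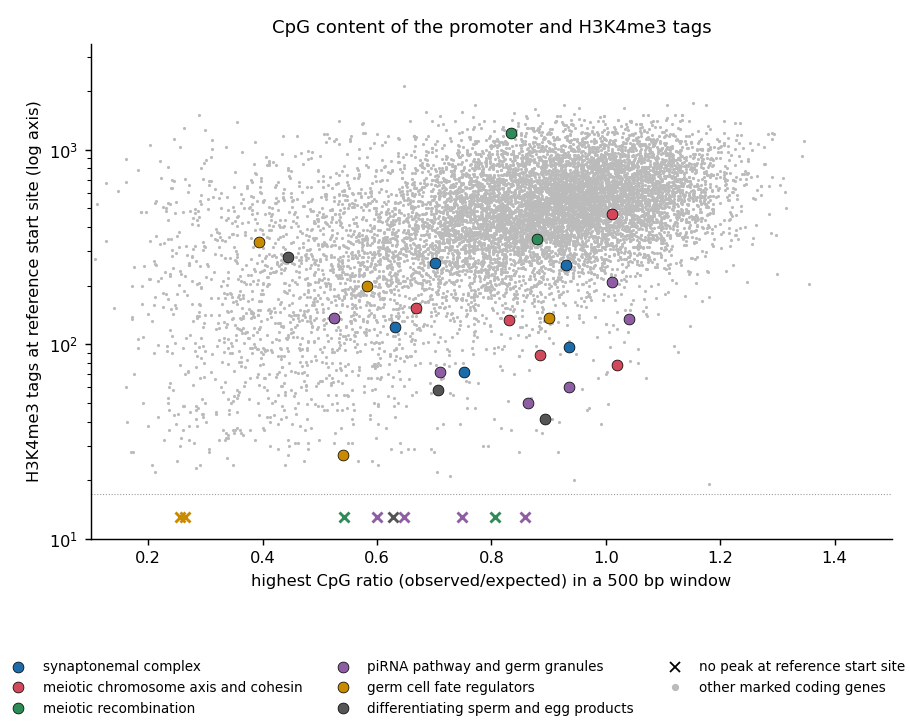
Highest CpG ratio of any 500 bp window around the reference start site (x axis, shown from 0.1 to 1.5) against H3K4me3 tags in the peak at that site (y axis, log scale) for 34 members, coloured by role, and other marked protein-coding genes in grey. Crosses under the dotted line are members with no peak at the reference start site and have no tag value. CpG-rich members such as Smc1b (78 tags), Ddx4 (60) and Slc25a31 (41) lie near the lower edge of the grey points.

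Motifs were searched in the 300 bases of the table, from 250 before to 50 after the start site, on both strands, and no matches of different motifs shared bases in the members. GCGGGA was present in 14 of 34 members (41.2%), beside 26.7% of all promoters of the table. CACGTG was present in 13 (38.2%), beside 8.10%. CNCCTCAG, the motif of the meiotic factors STRA8 and MEIOSIN (CTGAGGNG on the other strand), was present in 8 (23.5%), beside 8.69%. TGACGTCA, the cyclic AMP response element, was present in none, beside 2.41%, so that none of the 34 member promoters searched holds these letters in this window. GCGGGA and CACGTG occurred together in 8 members (23.5%), beside 2.79% of all: Ddx4, Hormad1, Mael, Slc25a31, Stag3, Sycp1, Sycp3 and Zp3. In Hormad1 the positions of the first base, counted from the start site as 0, were -95 for GCGGGA and -57 and -20 for CACGTG, and in Sycp3 they were -147, and -64 and -43. In Slc25a31 and Sycp1 the printed stretch shows CACGTG at -93 and -94, and GCGGGA lay past the start site.

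By CpG class, CACGTG was found in 7 of 16 high-CpG members (43.8%), beside 11.0% of all high-CpG genes, and in 5 of 14 intermediate ones (35.7%), beside 8.34%. GCGGGA was found in 11 of 16 high-CpG members (68.8%), beside 42.9%, and in 2 of 14 intermediate ones (14.3%), beside 22.9%. All 14 members with GCGGGA were among the 25 marked at the reference start site, and none were among the 9 unmarked there, while over all genes GCGGGA stood in 37.1% of marked and 6.68% of unmarked promoters. CACGTG stood in 10 of the 25 marked members (40.0%) and in 3 of the 9 unmarked ones, Piwil1 (-179 and -154), Tdrd1 (-11) and Tdrd9 (-165 and -95). Over all genes, CACGTG stood in 10% of marked and 4.37% of unmarked promoters, so its share was higher in the members of both groups. None of the 4 motifs was found in 10 members, among them Syce1, Tdrkh and Tex101. A match describes the sequence and is no evidence of binding, and the factors were not mapped here.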

How the data were processed

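The authors mapped the reads to mouse mm10 with Bowtie2, pooled both duplicates of a group and ran MACS (1.4.3 in the file headers) with a p-value cutoff of 1e-05, without a control library and with 1 tag kept per position. The deposited tag counts are whole numbers of tags of the merged library in each peak. Fold enrichment was deposited as a ratio, that of summit tags over local background in that library. The score was deposited by the authors as 10 times the -log10 p-value. The methods of the study limit fragment size below the tag sizes in the headers (142 bp for H3K4me3 and 151 bp for ASH2L), which was not resolved. Of the H3K4me3 tags, 27328071 of 39669806 remained after redundant tags were dropped, and of the ASH2L tags 25677963 of 26545897.

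Promoters came from GENCODE vM21 on GRCm38, the assembly also named mm10, and promoter sequences from RefSeq. The reference start site was that of the APPRIS principal transcript, or of the longest coding sequence. No test was made, since the lists hold no values per sample. All 39 members are named by role, and of other lists the genes with the most and the fewest tags and the unmarked ones, apart from items that are not reported here. The motif and length classes were read beside all genes. The members, lists and motifs were chosen with earlier results of these data known. The overlap procedure was tested on simulated data, where 300 planted peaks were found at all 331 genes they overlapped. Python 3.11.15 was used with pandas 2.3.3, numpy 2.4.6, scipy 1.17.1, pysam 0.24.0, matplotlib 3.10.9 and samtools 1.23.1.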

Additional observations from a re-analysis of the deposited data

How the results depend on the processing

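Over 56 alternative values of 5 results, 55 stayed within 1.5 times the count or within the 95% order interval of the median. H3K4me3 peaks were called at 25 of 39 members when the fold enrichment had to reach the list median, where 36.4% of all protein-coding genes remained, and at 35 with 2500 bp on both sides of the start site, where Nanos2 and Piwil1 were added. The median stayed between 133 and 136 tags and between 1462 and 1719 bp, and the median fold enrichment between 8.14 and 8.74. ASH2L peaks fell to 0 members at a p-value score of 100 or more. Tex101 lost its ASH2L peak with the RefSeq start sites, the reference start site and the window of 500 bp, and Syce1 lost its own with a fold enrichment at the list median and with 200 bp of overlap. A peak that covers the reference start site was added as a setting after seeing the data. This setting gave 29 members with H3K4me3 (74.4%), beside 63.4% of all protein-coding genes. It gave 2 members with ASH2L (5.13%), beside 5.67% of all. No paired analysis was possible because the lists come from merged duplicates and hold no values per replicate, and for the same reason no replicate could be left out. With 21 to 29 tags per ASH2L peak, depth limits what that list can show, and absence from either list is not absence of the mark or of the protein.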
